A study of Mus musculus with 17 samples.

Results

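The 10 receptors described here are surface proteins that tune T cell activation, of the immunoglobulin type except for Cd5, which belongs to the scavenger receptor cysteine-rich family: the co-stimulatory receptors Icos, Cd28 and Cd2, the inhibitory receptors Pdcd1 (PD-1), Lag3, Btla, Havcr2 (Tim-3) and Cd5, the ligand-like glycoprotein Cd200, and the nectin-binding receptor Cd96. They were found as the 13 of 45101 probe sets that the platform's gene table pairs with one of these symbols alone, and they make up 10 of the 18194 genes with such a probe set. Icos has 3 probe sets, Cd28 has 2 and each of the others has 1. Levels are log2 of the deposited intensities, and the values of different probe sets are not set against each other.

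The study profiled sorted CD4 T cells of male mice, 6 to 10 weeks old, on 17 Affymetrix M430v2 arrays, each made from cells pooled from 3 mice. In the co-culture experiment, spleen CD4 T cells lacking Foxp3 from C57BL/6-Foxp3/GFP reporter mice were kept for 5 days with dendritic cells (10 T cells per dendritic cell), 1 µg/ml anti-CD3, 0.6 ng/ml TGFbeta and 5 ng/ml IL-2, and then sorted by the reporter into Foxp3+ and Foxp3- cells. The dendritic cells came from the lamina propria of the gut (LP-DC) or from the spleen (Sp-DC), and spleen dendritic cells were also used with 100 nM retinoic acid (Sp-DC plus RA). This gives LP-DC Foxp3+, LP-DC Foxp3-, Sp-DC plus RA Foxp3+, Sp-DC Foxp3+ and Sp-DC Foxp3- cells with 2 arrays each, and Sp-DC plus RA Foxp3- cells with 1 array. In the memory experiment, C57BL/6 memory CD4 T cells were activated for 48 hours beside naive CD4 T cells with anti-CD3/CD28 beads, 20 U/ml IL-2 and 10 ng/ml TGFbeta, with 100 nM retinoic acid (Memory plus RA, 3 arrays) or without it (Memory, 3 arrays), and sorted back by a congenic marker. All groups therefore received TGFbeta and a stimulus to the T cell receptor, and the beads of the memory cultures also engage Cd28. RNA was amplified in 2 rounds before labelling. The labels do not say whether arrays of a group came from separate mice or cultures, so p-values measure only the spread between these arrays.

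A few facts of the whole series bear on the receptors. The array medians lay between 5.88 and 5.98 on the log2 scale, and no pair of arrays held identical values. The source label of 5 of the 6 Foxp3+ arrays names Foxp3- cells, the cells the cultures began with, and the groups follow the titles and the sort labels. The Foxp3 probe set lay below the array median on all 11 co-culture arrays (3.88 to 4.53) and between 7.08 and 9.14 on the memory arrays. Gpr83 and Izumo1r, markers of regulatory T cells, were higher in Foxp3+ than in Foxp3- cells by 2.49 ± 0.23 and 1.56 ± 0.09 log2 units (SE). All 7 measured T cell identity markers lay above the array median on every array. Markers of other cell types were not absent as lists. For CD8 T and NK cells 7 of the 9 measured, for dendritic cells 8 of 11, for monocytes and macrophages 4 of 7 and for B cells 4 of 6 exceeded the array median on 2 or more arrays. Among all 18194 genes, 11846 did so within the co-culture experiment and 12062 within the memory experiment, so these counts alone do not mark such cells. Gzmb reached 13.05, Nkg7 12.13, Klrd1 11.53, Ighm 11.38, H2-Ab1 10.78 and Adgre1 8.97. Cd8b1, Ncr1, Itgax, H2-Aa, Xcr1, Lyz2, Cd68, Itgam, Blnk and both erythroid markers lay below the array median on every array. Arrays with the same replicate number deviated together from their group means, with r between 0.45 and 0.75 in the co-culture experiment and between 0.65 and 0.94 in the memory experiment, and each pair of same-numbered arrays was positive, so each comparison is given from a limma fit without the number as a block (the unpaired fit) and from one with it (the paired fit). In the memory experiment number 3 alone stood apart: numbers 1 and 2 were not distinguished, since Memory 1 correlated with Memory plus RA 2 at 0.79 and with Memory plus RA 1 at 0.78. In the unpaired fit no receptor passed an adjusted p of 0.05 in any of the 12 comparisons, and every "rose" or "fell" of a receptor below refers to the paired fit.

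As background, T cells need a second signal beside the one from the T cell receptor. Cd28 and Icos, which are related in structure, give it on binding B7-family ligands, and Cd2 gives it by binding Cd48 in mice. Pdcd1 and Btla carry tyrosine motifs that recruit phosphatases and damp the signal, Lag3 binds class II MHC, Havcr2 binds galectin-9 and other ligands, and Cd5 lowers the strength of T cell receptor signals. Cd200 is bound by an inhibitory receptor on myeloid cells, and Cd96 competes with Cd226 and Tigit for the poliovirus receptor Pvr. Regulatory T cells are known for high levels of several of these receptors, Icos among them.

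Several of the genes neighbour each other. In the RefSeq annotation of mouse (GRCm38.p6), Cd28 and Icos lie on chromosome 1 with 1 coding gene, Ctla4, between them. Btla and Cd200 lie on chromosome 16 with no coding gene between them, and Cd96 follows after 10 more coding genes. Btla, Cd200 and Cd96 are also the receptors that changed in some comparison below and have an entry in RefSeq's promoter table, so the 250 bases before their annotated starts are shown, 5′ to 3′ on the gene's strand, at chr16:46120249-46120498 (minus strand) for Cd96, chr16:45409054-45409303 (minus strand) for Cd200 and chr16:45224087-45224336 (plus strand) for Btla. Capitals mark each match, on either strand, to any of 5 motifs: the nuclear receptor half-site AGGTCA, the AP-1 site TGANTCA, the NFAT core GGAAA, the forkhead site GTAAACA and the GATA site AGATAA.
Cd96: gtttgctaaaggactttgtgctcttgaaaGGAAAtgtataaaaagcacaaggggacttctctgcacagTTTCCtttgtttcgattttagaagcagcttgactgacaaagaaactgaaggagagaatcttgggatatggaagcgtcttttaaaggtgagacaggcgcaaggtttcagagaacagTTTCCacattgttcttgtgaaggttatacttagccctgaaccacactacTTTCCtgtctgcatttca
Cd200: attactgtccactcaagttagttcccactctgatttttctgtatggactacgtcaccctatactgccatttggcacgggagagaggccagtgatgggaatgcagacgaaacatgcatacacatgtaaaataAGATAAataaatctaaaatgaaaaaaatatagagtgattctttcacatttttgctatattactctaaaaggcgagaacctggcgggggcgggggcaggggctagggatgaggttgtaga
Btla: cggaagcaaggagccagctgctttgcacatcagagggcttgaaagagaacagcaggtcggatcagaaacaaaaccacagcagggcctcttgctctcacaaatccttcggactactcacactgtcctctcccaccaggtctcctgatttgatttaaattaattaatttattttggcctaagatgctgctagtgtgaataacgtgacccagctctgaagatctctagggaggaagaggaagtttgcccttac

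The Cd96 window holds 4 matches to GGAAA, 1 on its own strand and 3 on the opposite strand, and none to the other motifs. The Cd200 window holds 1 match, to AGATAA, and the Btla window holds none. Among 32851 mouse promoters of the same length, GGAAA occurs in 55.6%, AGGTCA in 14%, AGATAA in 9.99%, TGANTCA in 6.75% and GTAAACA in 3.17%. The half-site AGGTCA was found in the windows of Pdcd1 and Havcr2 among the 6 receptors with an entry, and not in those shown. A match is only a run of letters, and no binding was measured in these samples.

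The receptors differed in whether they were measurable at all. Pdcd1 lay below the array median on all 11 co-culture arrays, at 4.44 to 4.86, and was above it on 4 of 6 memory arrays. Havcr2 lay below it on all 17 arrays, at 3.74 to 4.61. Lag3 stood just above it on every array, within 5.95 to 6.43. The other 7 receptors were above it on all 17 arrays. A gene was tested where it exceeded the array median on at least 2 arrays of the experiment, which kept 8 of the 10 receptors in the co-culture experiment (without Pdcd1 and Havcr2) and 9 in the memory experiment (without Havcr2), among 11846 and 12062 genes.

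Between the experiments, which differ in strain, culture time and stimulus and whose joint normalisation is not stated in the sources used here, several receptors did not overlap. Cd200 lay between 10.82 and 11.87 on the memory arrays and between 7.11 and 9.30 on the co-culture arrays. Pdcd1 also lay higher on every memory array than on any co-culture array. Cd2 ran the other way, at 7.40 to 9.33 on the memory arrays and 9.70 to 11.99 on the co-culture arrays, and the Cd28 set 1437025_at likewise, at 10.95 to 11.65 and 11.79 to 12.49. On the other Cd28 set, 1417597_at, the experiments overlapped, at 8.17 to 10.61 on the memory arrays and 9.40 to 10.20 on the co-culture arrays. These levels are descriptions and were not tested, since experiment and group cannot be told apart. The share of all genes without overlap between the experiments was not counted, so non-overlap is not a trait shown to be particular to these receptors.

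**Figure D1:**
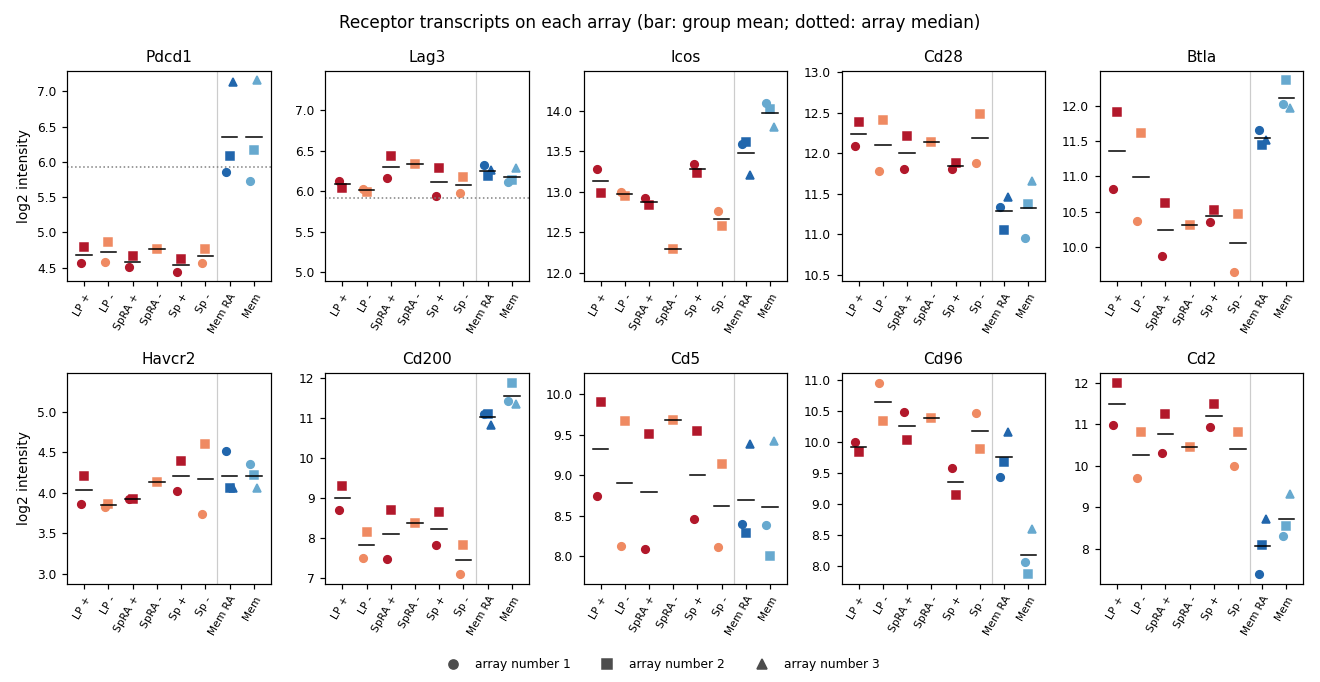
Log2 intensity of the 10 receptors (one panel each) on the 17 arrays, by group: LP is LP-DC, SpRA is Sp-DC plus RA, Sp is Sp-DC, + and - are Foxp3+ and Foxp3- cells, and Mem is memory cells. Points are arrays, shaped by replicate number, bars are group means and the dotted line is the middle of the array medians. Cd200 sits at 10.82 to 11.87 on memory arrays and at most at 9.30 on co-culture arrays, and Cd96 is lowest in Memory cells.

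The order of group means shows which groups stood apart from their neighbours. For Cd96 the order ran from LP-DC Foxp3- (mean 10.65) down through Sp-DC plus RA Foxp3-, Sp-DC plus RA Foxp3+, Sp-DC Foxp3-, LP-DC Foxp3+, Memory plus RA and Sp-DC Foxp3+ (9.37) to Memory (8.18). Each of its neighbouring groups overlapped except the last pair, where the lowest Sp-DC Foxp3+ array lay 0.55 above the highest Memory array. For Cd2 the 3 Foxp3+ groups came first, led by LP-DC Foxp3+ (11.48), then the 3 Foxp3- groups, then Memory (8.73) and Memory plus RA (8.07). The only gap in that order was between the lowest co-culture group and Memory. For Cd200 the LP-DC Foxp3+ group came next after both memory groups, its lower array (8.71) 0.34 above the Sp-DC plus RA Foxp3- array, though one Sp-DC plus RA Foxp3+ array reached 8.70. For Btla, Memory (12.12), Memory plus RA (11.54), LP-DC Foxp3+ (11.36) and LP-DC Foxp3- (10.99) led the 4 groups cultured with Sp-DC, whose means lay between 10.06 and 10.44, and most neighbours overlapped. Icos was highest in Memory (13.97) and lowest in the single Sp-DC plus RA Foxp3- array (12.29). For Lag3, with group means within 6.01 to 6.34, every pair of neighbours overlapped.

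The sort of the co-cultures asks how cells that gained Foxp3 differ from cells of the same culture that did not. Cd2, Cd200 and Icos rose in Foxp3+ cells, on average over the 3 cultures, and Cd96 fell. Cd2 was higher in each of the 5 same-numbered pairs of arrays, as were Cd200, Icos (on its chosen probe set 1436598_at) and Btla, and Cd96 was lower in each. Of all genes tested, 10.0% were higher in all 5 pairs and 9.66% lower. Among the 8 receptors tested, 3 rose and 1 fell in the paired fit, where 4.79% of all 11846 genes passed (2.63% higher and 2.16% lower), and 0 passed in the unpaired fit, where 0.920% did (3 receptors had an unadjusted p under 0.05). The median difference of the 8 receptors was 0.27 with pairing and 0.13 without it, against -0.02 and -0.03 over all genes.

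Cd2, the Cd48-binding adhesion and co-stimulatory receptor, measured 10.98 and 11.99 in LP-DC Foxp3+ cells, against 9.70 and 10.81 in LP-DC Foxp3- cells. In the Sp-DC cultures it measured 10.93 and 11.48 in Foxp3+ cells, against 9.98 and 10.82 in Foxp3- cells, and with retinoic acid 10.30 and 11.24 in Foxp3+ cells, against 10.46 in the Foxp3- cells of number 2. The groups overlapped only with retinoic acid, where the Foxp3- array has number 2 and Cd2 was higher on number 2 throughout. Of all genes, 29.3% did not overlap with LP-DC (14.8% higher) and 27.6% with Sp-DC (12.5% higher). Over the 3 cultures the difference was 0.93 ± 0.09 log2 units (SE), 1.91-fold, with a paired adjusted p of 0.000983 and an unpaired one of 0.58.

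Cd200 measured 8.71 and 9.30 in LP-DC Foxp3+ cells, against 7.52 and 8.16 in LP-DC Foxp3- cells, without overlap (29.3% of all genes, 14.8% higher). In the Sp-DC cultures it measured 7.84 and 8.64 in Foxp3+ cells, against 7.11 and 7.83 in Foxp3- cells, and with retinoic acid 7.49 and 8.70 in Foxp3+ cells, against 8.37 in Foxp3- cells. The same-numbered difference was 1.14 to 1.19 with LP-DC, 0.73 to 0.82 with Sp-DC and 0.33 in the one pair with retinoic acid. Over the 3 cultures it was 0.69 ± 0.10 (1.61-fold), with a paired adjusted p of 0.0044 and an unpaired one of 0.806.

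Icos, the inducible co-stimulator, measured 13.34 and 13.23 in Sp-DC Foxp3+ cells, against 12.76 and 12.57 in Sp-DC Foxp3- cells, and 12.92 and 12.83 in Sp-DC plus RA Foxp3+ cells, against 12.29 in Sp-DC plus RA Foxp3- cells. With LP-DC it measured 13.28 and 12.98 in Foxp3+ cells, against 12.99 and 12.95 in Foxp3- cells, and these groups overlapped. Over the 3 cultures the difference was 0.43 ± 0.08 (1.35-fold), with a paired adjusted p of 0.0118 and an unpaired one of 0.086.

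Cd96 measured 10.01 and 9.84 in LP-DC Foxp3+ cells, against 10.96 and 10.34 in LP-DC Foxp3- cells. In the Sp-DC cultures it measured 9.59 and 9.15 in Foxp3+ cells, against 10.47 and 9.90 in Foxp3- cells, and with retinoic acid 10.49 and 10.04 in Foxp3+ cells, against 10.39 in Foxp3- cells. The groups overlapped only with retinoic acid, and non-overlap with LP-DC and Sp-DC was shared by 29.3% and 27.6% of all genes (14.5% and 15.1% lower). Over the 3 cultures Cd96 fell by 0.63 ± 0.09 log2 units (1.55-fold), with a paired adjusted p of 0.00309 and an unpaired one of 0.338. Cd96 is also carried by CD8 T and NK cells, and 2 of 7 tested markers of those cells fell with it. In the paired fit Gzma differed by -2.86 and Klrd1 by -2.14, while Cd8b1 and Ncr1 were below the array median everywhere. With LP-DC alone Cd8a fell too, by 1.26 (paired adjusted p 0.0205). It measured 5.35 and 4.68 in LP-DC Foxp3+ cells, against 7.01 and 5.53 in LP-DC Foxp3- cells. With Sp-DC it measured 6.04 and 5.62 in Foxp3+ cells, against 5.96 and 5.66 in Foxp3- cells. Sums of intensity, here and below, are of linear values, so the highest markers weigh most in them. The summed intensity of the 9 markers measured was 4293 to 4344 in LP-DC Foxp3+ cells and 7708 to 8265 in LP-DC Foxp3- cells, and 10151 to 14389 in Sp-DC Foxp3+ cells and 12383 to 15365 in Sp-DC Foxp3- cells. The part of such cells in the Cd96 difference was not tested, and in sorted bulk samples fewer cells of a type and less RNA per cell cannot be told apart.

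**Figure D2:**
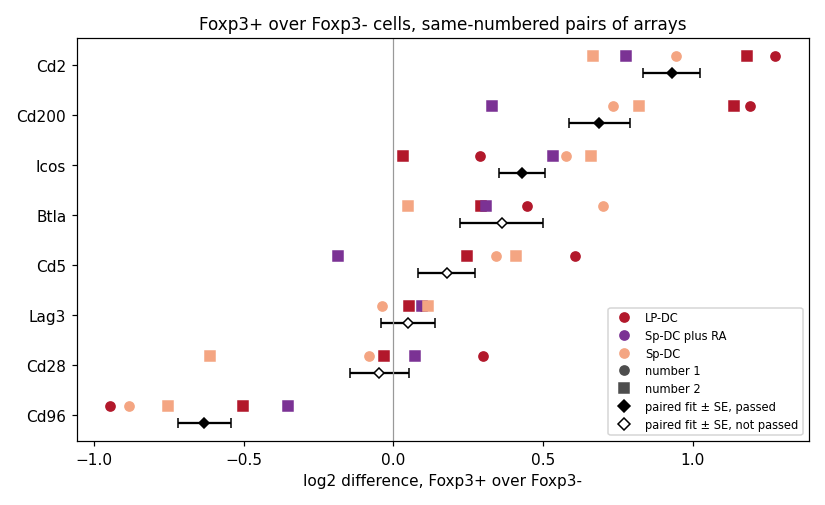
Log2 difference of Foxp3+ over Foxp3- cells for the 8 receptors tested. Coloured points are the 5 same-numbered pairs of arrays by culture, and diamonds are the paired fit's mean over the 3 cultures ± SE, filled where the adjusted p is under 0.05. All 5 pairs lie right of zero for Cd2, Cd200, Icos and Btla and left of zero for Cd96.

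Within single cultures fewer receptors passed. With LP-DC, Cd2 rose by 1.23 ± 0.15 (adjusted p 0.00269) and Cd200 by 1.17 ± 0.16 (adjusted p 0.00429), and Cd96 fell by 0.72 ± 0.14 (adjusted p 0.0205) in the paired fit, where 3.58% of all genes passed (2.40% higher and 1.18% lower). With Sp-DC, Cd96 fell by 0.82 ± 0.14 (adjusted p 0.0413), where 0.557% of genes passed, and Cd2, Icos and Cd200 differed by 0.81, 0.62 and 0.78 with adjusted p of 0.0536, 0.0664 and 0.0763. Of 19 other settings of the paired fit, Cd2 passed in 5, Icos in 3 and Cd200 in 1, quantile normalisation each time among them, and Cd96 lost its call in 7. With Sp-DC plus RA, where the single Foxp3- array is assumed to vary like the others, no receptor passed, 0.0253% of genes passed and 2 receptors had an unadjusted p under 0.05. The unpaired fit called 0.135% of genes with LP-DC (0.0338% lower) and none in the 2 cultures with Sp-DC, no receptor among them, and 3, 2 and 1 receptors with LP-DC, Sp-DC and Sp-DC plus RA had an unadjusted p under 0.05 there.

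The difference between cultures was itself tested and no gene passed in either fit (0% of genes). An unadjusted p under 0.05 was reached with pairing by 1 receptor for LP-DC against Sp-DC and by 2 for Sp-DC plus RA against Sp-DC, and by none without pairing. For Icos the sort difference with LP-DC was lower than with Sp-DC by 0.46 ± 0.17 (unadjusted p 0.0256, adjusted p 1 in the paired fit). For Cd200 and Cd5 the sort difference with Sp-DC plus RA was lower than with Sp-DC by 0.65 ± 0.26 and 0.64 ± 0.24, each with an adjusted p of 1. Cd5 was higher in Foxp3+ cells in 4 of 5 pairs and lower in the pair with retinoic acid. The other tested receptors showed smaller mean sort differences, and none passed. These were Btla 0.36 ± 0.14, Cd5 0.18 ± 0.10, Lag3 0.05 ± 0.09 and Cd28 -0.05 ± 0.10 (on its chosen probe set 1437025_at).

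Retinoic acid in the memory cultures asks how activated memory cells with it differ from those without it. Cd96 rose and Cd2 fell, and Icos, Btla and Cd200 were lower on all 3 Memory plus RA arrays than on any Memory array and missed the threshold. Each of these 3 passed in 5 of 15 other settings of the paired fit, which included log2 of the value plus 32, the average of a gene's probe sets and a trended prior. Of 9 receptors tested, 1 rose and 1 fell in the paired fit, where 4.94% of all 12062 genes passed (2.60% higher and 2.34% lower), and 0 passed in the unpaired fit, where 0.0829% did (0.0415% in each direction; 4 receptors had an unadjusted p under 0.05). The median of the 9 receptors was -0.04, against 0.00 over all genes.

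Cd96 measured 9.43, 9.68 and 10.17 in Memory plus RA cells, against 8.07, 7.87 and 8.59 in Memory cells, and the groups lay clear of each other. The difference was 1.58 ± 0.14 log2 units (3-fold, higher in 3 of 3 pairs), with a paired adjusted p of 0.000247 and an unpaired one of 0.164. It ranked 32 of 12062 from the highest difference in the paired fit. Among all genes tested, 18.9% were higher in all 3 pairs and 4.25% were higher without overlap. The arrays numbered 3 stood above the others for Cd96 in both groups, by 0.61 in Memory plus RA and 0.62 in Memory. Without both of them the unpaired difference was 1.59 ± 0.17 and passed, with an adjusted p of 0.00748, where 2.00% of all genes passed. Of 6 tested markers of CD8 T and NK cells, 3 rose with Cd96 (Nkg7 by 1.76, Gzmk by 0.88 and Klrd1 by 0.87) and Gzmb fell by 0.67. The summed intensity of the 9 markers measured was 1833 to 2382 in Memory plus RA cells and 1025 to 1365 in Memory cells. The part of such cells in the Cd96 difference was not tested.

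Cd2 measured 7.40, 8.10 and 8.72 in Memory plus RA cells, against 8.30, 8.54 and 9.33 in Memory cells. The groups overlapped, yet Cd2 was lower in each same-numbered pair, by 0.44 to 0.91 (17.4% of all genes were lower in all 3 pairs). The difference was -0.65 ± 0.14 (1.57-fold lower), with a paired adjusted p of 0.0298 and an unpaired one of 1, and the paired call was lost without the pair numbered 3 (adjusted p 0.19).

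Btla measured 11.66, 11.45 and 11.51 in Memory plus RA cells, against 12.02, 12.36 and 11.97 in Memory cells, a difference of -0.58 ± 0.15 with a paired adjusted p of 0.0623. Cd200 measured 11.10, 11.11 and 10.82 in Memory plus RA cells, against 11.42, 11.87 and 11.35 in Memory cells, a difference of -0.54 ± 0.14 with a paired adjusted p of 0.0627. The chosen Icos probe set measured 13.59, 13.62 and 13.21 in Memory plus RA cells, against 14.10, 14.02 and 13.80 in Memory cells, a difference of -0.50 ± 0.13 with a paired adjusted p of 0.0623. In each of these the groups did not overlap, as for 7.81% of all genes tested (3.56% lower). Pdcd1, Lag3, Cd28 and Cd5 differed by 0.09 or less in either direction, with standard errors of 0.13 to 0.16.

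The other Icos probe sets showed larger differences with retinoic acid in memory cells. In a fit over all 20777 probe sets tested, added after the data were seen, the set 1421930_at measured 9.74, 9.93 and 9.75 in Memory plus RA cells, against 10.74, 10.86 and 10.74 in Memory cells. The set 1421931_at measured 10.26, 10.23 and 9.84 in Memory plus RA cells, against 11.28, 11.44 and 10.83 in Memory cells. They fell by 0.97 ± 0.13 (adjusted p 0.00476) and 1.07 ± 0.13 (adjusted p 0.0033), against a fall of 0.50 ± 0.13 with an adjusted p of 0.0928 for the chosen set 1436598_at, in the paired fit where 3.58% of probe sets passed. The sets differed in size and not in direction. In the mean sort difference all 3 sets were higher in Foxp3+ cells, by 0.43 to 0.49, and 1421930_at missed the threshold (adjusted p 0.0679). In the LP-DC pair numbered 2 the set 1421930_at was lower in Foxp3+ cells, at 9.71 against 9.78 in Foxp3- cells. The Cd28 sets ran apart: on 1417597_at the difference of Sp-DC plus RA over Sp-DC Foxp3+ cells was -0.39 ± 0.14 and on 1437025_at 0.17 ± 0.16, and neither passed. They also ran apart in the sort with Sp-DC. On 1417597_at the mean was 10.06 in Foxp3+ cells and 9.86 in Foxp3- cells, and on 1437025_at it was 11.84 and 12.18.

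**Figure D3:**
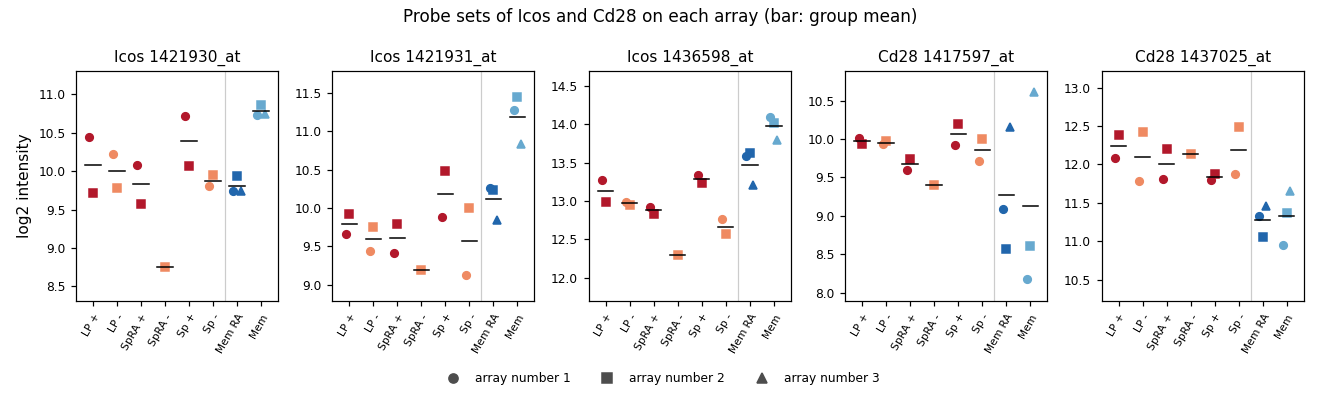
Log2 intensity of the 3 Icos and 2 Cd28 probe sets on the 17 arrays, by group as labelled under each panel, with the same span of 3 log2 units in every panel. Points are arrays, shaped by replicate number, and bars are group means. In memory cells the Icos sets 1421930_at and 1421931_at lie about 1 unit lower with retinoic acid, and the set 1436598_at lies 0.50 lower.

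Retinoic acid in the Sp-DC co-cultures is the second test of it. In Foxp3+ cells Cd96 was the only receptor of 8 that rose, where 1.12% of all genes passed in the paired fit (0.616% higher and 0.507% lower). The unpaired fit called 0.101% of genes and no receptor, and 2 receptors had an unadjusted p under 0.05 in it. Cd96 measured 10.49 and 10.04 in Sp-DC plus RA Foxp3+ cells, against 9.59 and 9.15 in Sp-DC Foxp3+ cells. These groups did not overlap, as for 25.1% of all genes (12.9% higher). The difference was 0.89 ± 0.14 (1.86-fold), with a paired adjusted p of 0.0158 and an unpaired one of 0.752. The paired call was lost when any of these 4 arrays was left out. Of 7 tested CD8 T and NK cell markers, 2 fell here and 0 rose (median -0.22), with differences of -2.22 for Eomes and -1.43 for Klrd1 in the paired fit. Cd8a, which did not pass, measured 6.77 and 5.93 in Sp-DC plus RA Foxp3+ cells, against 6.04 and 5.62 in Sp-DC Foxp3+ cells, and Gzma 9.72 and 8.38, against 6.17 and 8.97. The summed intensity of the 9 markers was 7808 to 9555 in Sp-DC plus RA Foxp3+ cells and 10151 to 14389 in Sp-DC Foxp3+ cells. Icos was lower in both pairs, by 0.40 and 0.42, and did not pass (adjusted p 0.195). Cd2 was also lower in both pairs, by 0.25 and 0.63 (adjusted p 0.258). Among all genes tested, 28.3% were lower in both pairs.

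In Foxp3- cells only the pair numbered 2 exists, and the group with retinoic acid is 1 array. Cd96 measured 10.39 there, against 9.90 on the same-numbered Sp-DC Foxp3- array and 10.47 on the other. No receptor passed in either fit, 0.262% of all genes passed with pairing and 0.00844% without it, and 3 receptors with pairing and 0 without it had an unadjusted p under 0.05. Cd200 was 0.54 higher and Cd5 0.55 higher in that pair.

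The difference between the memory and the Foxp3+ responses to retinoic acid was tested in a joint fit over both experiments. For Cd96 the response was larger in memory cells by 0.69 ± 0.19, with an unadjusted p of 0.0033 and an adjusted p of 0.121 in the paired fit, where 1.41% of 11432 genes passed. No receptor passed in either fit (0.0525% of genes in the unpaired fit).

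**Figure D4:**
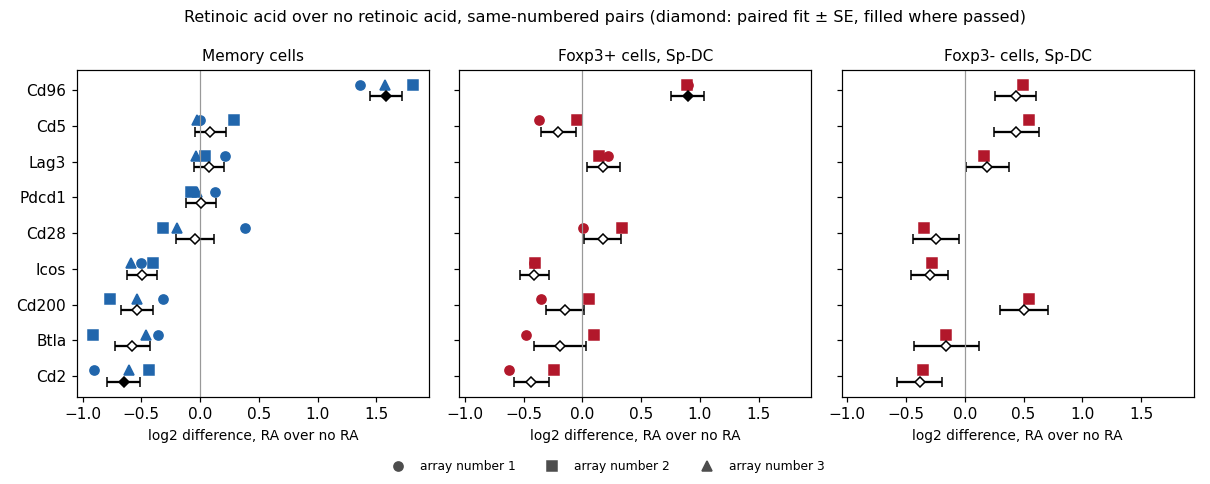
Log2 difference of cells with over cells without retinoic acid in memory cells, Foxp3+ cells and Foxp3- cells (panels) for the receptors tested; Pdcd1 was tested in memory cells only. Coloured points are same-numbered pairs of arrays, and diamonds are the paired fit ± SE, filled where the adjusted p is under 0.05. Cd96 lies right of zero in every pair of every panel, and Icos and Cd2 left of zero in every pair.

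The kind of dendritic cell asks how gut cells differ from spleen cells as partners of the T cells. LP-DC Foxp3+ and Sp-DC plus RA Foxp3+ cells differ in added retinoic acid as well, and the parts of each cannot be told apart in that comparison. Btla, Cd200 and Cd2 rose in LP-DC Foxp3+ cells over Sp-DC plus RA Foxp3+ cells, by 1.12 ± 0.22 (adjusted p 0.0382), 0.91 ± 0.16 (adjusted p 0.0259) and 0.71 ± 0.15 (adjusted p 0.048) in the paired fit, where 1.87% of all genes passed. Btla, the receptor of the herpesvirus entry mediator, measured 10.82 and 11.91 in LP-DC Foxp3+ cells, against 9.87 and 10.62 in Sp-DC plus RA Foxp3+ cells. These groups did not overlap, as for 28.2% of all genes (15.5% higher). Over Sp-DC Foxp3+ cells, which measured 10.35 and 10.52 for Btla, Cd200 alone passed, at 0.76 ± 0.16 (adjusted p 0.0499), where 1.81% of genes passed, and this call was lost in 10 of 19 other settings, median centring and no filter among them. Btla differed there by 0.93 ± 0.22 (adjusted p 0.0622) and Cd96 by 0.56 ± 0.14 (adjusted p 0.069). Both were higher in both pairs, as were 35.7% of all genes. Btla passed in 3 of 19 other settings of the paired fit, each with an array left out. For Cd2 the group means were 11.48 in LP-DC Foxp3+, 11.21 in Sp-DC Foxp3+ and 10.77 in Sp-DC plus RA Foxp3+ cells. These comparisons share the LP-DC Foxp3+ arrays. In LP-DC Foxp3+ over Sp-DC plus RA Foxp3+ cells, 1 of 7 CD8 T and NK cell markers rose, Eomes at 1.81, and 2 fell, Gzmb at -1.62 and Cd8a at -1.34. Of 3 tested monocyte and macrophage markers Adgre1 fell there, at -1.51, and the part of these markers in the result was not tested.

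In Foxp3- cells Btla measured 10.37 and 11.61 with LP-DC, against 9.65 and 10.47 with Sp-DC, a difference of 0.93 ± 0.22 with an adjusted p of 0.0748, and no receptor passed where 0.861% of genes did. When either one of the Sp-DC Foxp3+ arrays was left out, Btla passed there with pairing. Without pairing no receptor passed in these 3 comparisons, none had an unadjusted p under 0.05, and 0.0929% of genes passed for LP-DC Foxp3+ over Sp-DC plus RA Foxp3+ cells and none for the other two. Among those of CD8 T and NK cells, 2 of 7 tested markers fell in LP-DC Foxp3+ over Sp-DC Foxp3+ cells, Gzmb with a difference of -1.84 and Nkg7 with -1.70. The summed intensity of the CD8 T and NK cell markers was 4293 to 4344 in LP-DC Foxp3+ cells and 10151 to 14389 in Sp-DC Foxp3+ cells. The highest markers in both were Gzmb (10.81 and 10.93, against 12.38 and 13.05) and Nkg7 (10.43 and 9.62, against 11.66 and 11.78). The part of the CD8 T and NK cell markers in these results was not tested.

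The replicate number moved several receptors as much as the conditions did. In the 5 co-culture groups with 2 arrays, Cd5 was higher on number 2 than on number 1 in every group, by 1.03 to 1.53, and Btla (0.17 to 1.24), Cd2 (0.56 to 1.11), Cd200 (0.59 to 1.21) and Cd28 (0.07 to 0.63) were too. Icos and Cd96 were lower on number 2 in every group, by up to 0.30 and 0.61. Pdcd1, below the array median on these arrays, was higher on number 2 in every group, by 0.16 to 0.28. In the memory experiment the arrays numbered 3 stood above the mean of the others for Pdcd1 by 1.16 in Memory plus RA and 1.21 in Memory cells. They did so for Cd5 by 1.05 and 1.22 and for Cd2 by 0.97 and 0.91. The share of all genes that moved 1 way with the number was not counted in either experiment. Such moves are therefore not shown to be particular to these receptors.

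The sums of squares put these in proportion, as a description. Over the 8 arrays of the LP-DC and Sp-DC cultures the Foxp3 sort held 62.2% of the sum of squares of Icos, 54.5% of Cd2, 54.5% of Cd96 and 52.9% of Cd200, against 7.4% for the median gene. The kind of dendritic cell held 46.4% of Btla, against 13.8% for the median gene, and the number held 83.5% of Cd5, against 26.3%. Over the 6 memory arrays retinoic acid held 87% of Cd96, 81.5% of Btla, 71% of Icos and 67.4% of Cd200, against 5.15% for the median gene. The number held 99.4% of Pdcd1 and 97.8% of Cd5, against 79.2%.

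**Figure D5:**
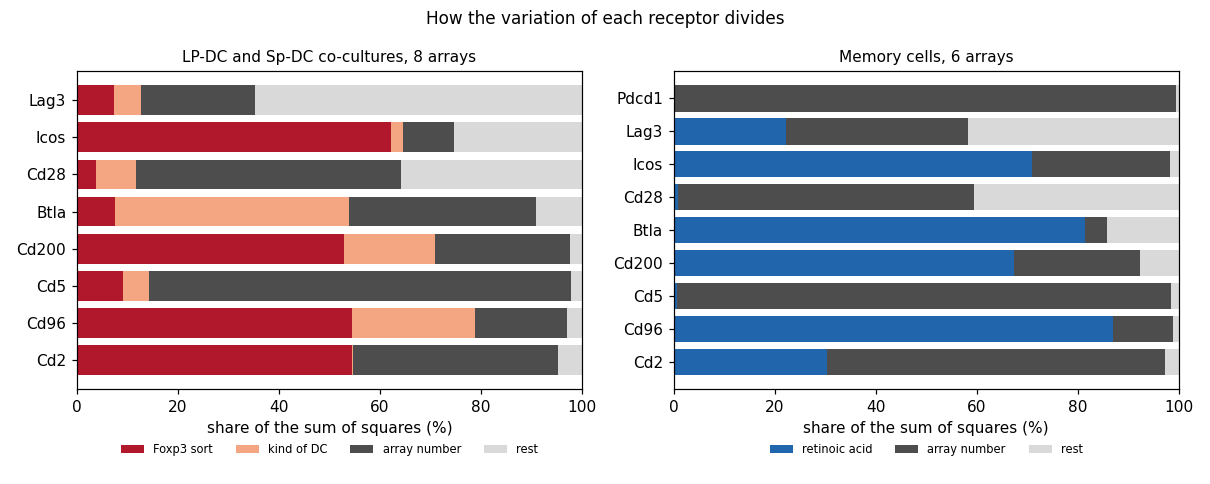
Share in percent of each receptor's sum of squares held by the Foxp3 sort, the kind of dendritic cell, the replicate number and the rest over 8 co-culture arrays (left), and by retinoic acid, the number and the rest over 6 memory arrays (right). Cd5 is mostly number in both panels, and Cd96 divides mostly by sort on the left and by retinoic acid on the right.

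Other genes of the same pathways are given from 4 lists, as counts over their tested members in the paired fit. Among ligands and partners of the receptors, 2 rose and 1 fell of 12 in the mean sort difference (median 0.19): Pdcd1lg2 (PD-L2) by 1.01 ± 0.12 and Cd274 (PD-L1), both ligands of Pdcd1, by 0.49 ± 0.10, while Cd244a, a Cd48 receptor, fell by 0.80 ± 0.13. Pdcd1lg2 passed in the unpaired fit too (1.05 ± 0.15, adjusted p 0.0256). In Memory plus RA over Memory cells 2 rose and 1 fell of 11 (median -0.09): Cd86, a Cd28 ligand, by 0.74 ± 0.14 and Pdcd1lg2 by 0.64 ± 0.15, while Pvr, which Cd96 binds, fell by 1.07 ± 0.14 (adjusted p 0.00222). In Sp-DC plus RA over Sp-DC Foxp3+ cells none of 12 passed.

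Among other immunoglobulin-type receptors, 4 rose and 2 fell of 17 in the mean sort difference (median 0.04), led by Pdcd1lg2, which is on this list as well, and by Cd7, which fell by 0.92 ± 0.19, and Slamf1, which rose by 0.66 ± 0.09. In memory cells 2 rose and 3 fell of 16 with retinoic acid (median 0.07), and the 3 of largest size fell, Slamf6 by 0.85 ± 0.14, the adhesion receptor Icam1 by 0.71 ± 0.13 and Slamf1 by 0.66 ± 0.13. Of 28 signal proteins downstream of the receptors, none passed in the mean sort difference, and with retinoic acid in memory cells 2 rose (median 0.07), the adaptor Dok1 by 0.86 ± 0.13 and the phosphatase Ubash3b by 0.72 ± 0.14.

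Of 20 transcription factors known to act on such receptor genes, 2 rose and 1 fell in the mean sort difference (median 0.21): Nr4a3 rose by 1.27 ± 0.12 and Jun by 0.69 ± 0.11, and Tbx21 (T-bet) fell by 1.07 ± 0.20. In Memory plus RA over Memory cells 2 rose and 4 fell (median -0.09): the AP-1 members Fos and Jun rose by 2.06 ± 0.18 and 1.20 ± 0.13, and Nfil3 led the falls at 1.14 ± 0.13. In Sp-DC plus RA over Sp-DC Foxp3+ cells 1 rose and 3 fell, led by Eomes at -2.22 ± 0.26, Egr2 at 2.19 ± 0.26 and Maf at -1.20 ± 0.22. In LP-DC over Sp-DC Foxp3+ cells 3 rose and 3 fell, led by Egr2 at 1.84 ± 0.26, Maf at -1.83 ± 0.22 and Nfil3 at -1.68 ± 0.29. The median of all genes lay within 0.03 of zero in each of these comparisons.

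The receptors' patterns over arrays are given as correlations, which take in the difference between the experiments and the replicate number and carry no p. Over the 11 co-culture arrays Cd2 and Cd200 ran together (r = 0.873), Cd2 and Cd96 ran opposite (r = -0.795), and Cd5 ran with Cd200 (r = 0.811). Over all 17 arrays the gene most like Cd96 among 11431 was Tmem229b (r = 0.93), before Card6 (0.91) and Lpar6 (0.90). The genes most like Cd200 were Slc15a3 (0.98), Irak1bp1 (0.97) and Irf4 (0.97), those most like Cd2 were Phlpp1 (0.97), Lratd2 (0.97) and Reck (0.95), and those most like Btla were Kif5c (0.94), Slc25a33 (0.91) and Gclc (0.91). Icos ran most closely with Kif1b (0.93), Wwp1 (0.90) and Sbk1 (0.90), Cd28 with Zfp871 (0.97), 4833420G17Rik (0.95) and Prpf39 (0.95), and Cd5 with Arntl (0.94), Kmt2b (0.92) and Osbpl8 (0.92). For Pdcd1 they were Lyar (0.99), Noa1 (0.98) and Mrpl13 (0.98), with the split between experiments as the main feature, since Pdcd1 was above the array median on 4 arrays only. For Lag3 (Zfp28, 0.77, Alcam, 0.77, and Ebi3, 0.77) and Havcr2 (Nup210l, 0.83, Bend4, 0.83, and Arhgap22, 0.81), whose probe sets stayed near or below the array median, the correlations were lower.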

How the data were processed

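The authors deposited 1 table of intensity values, on a linear scale, for 45101 probe sets on 17 arrays; per the series' design text they were preprocessed with RMA in GenePattern, and RMA is also named in the submitters' processing notes. Values were taken to log2 with no further scaling. Probe sets were named from the platform annotation (34958 with 1 symbol, 932 with several, 9211 with none), and where a gene had several, the one with the highest mean stood for it. Differences were tested with limma 3.58.1 in R 4.3.3, with 1 model per experiment, 1 coefficient per group and p-values adjusted by Benjamini-Hochberg across every tested gene; a script checked this on simulated data. The main fit had no block and the alternative had the replicate number as a block. The numbers come from the sample titles. Every pair of groups with at least 2 arrays each had same-number correlations above 0.1, which is why the number was used as a block. This does not show that same-numbered arrays share mice or cultures. In the memory experiment numbers 1 and 2 were not distinguished (0.79 for Memory 1 with Memory plus RA 2, 0.78 with Memory plus RA 1). All 10 receptors are named, with up to 3 called genes per list and comparison, largest first, and the 3 genes most correlated with each receptor. The receptors and lists were chosen with earlier results of these data known. Settings tried were quantile normalisation, median centring, no filter and a 60th percentile filter, averaging a gene's probe sets, robust and trended priors, log2 of the value plus 32, each array left out in turn, and, added after the data were seen, a fit over probe sets, the memory experiment without number 3, and the joint fit. The single Sp-DC plus RA Foxp3- array could not be left out of comparisons that use its group. Precision is limited by 1 to 3 arrays per group.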

Additional observations from a re-analysis of the deposited data

How the results depend on the processing

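Pairing decided the calls of the receptors. The unpaired count of receptors passing was 0 in all 12 comparisons, and with the replicate number as a block it was 2 for Memory plus RA over Memory, 4 for the mean sort difference, 3 for the sort with LP-DC, 1 for the sort with Sp-DC, 1 for Sp-DC plus RA over Sp-DC Foxp3+ cells, 1 for LP-DC over Sp-DC Foxp3+ cells and 3 for LP-DC Foxp3+ over Sp-DC plus RA Foxp3+ cells. The block, as designed, changed no other count of receptors. Without both memory arrays numbered 3 the unpaired count for Memory plus RA over Memory was 1 (Cd96), and every other unpaired setting gave 0. Over all genes the unpaired settings gave 0 to 235 calls for Memory plus RA over Memory and 3 to 155 for the mean sort difference, against 10 and 109.

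The 15 paired calls were tried in 273 settings: 226 kept direction and call, 47 lost the call and 0 changed direction. The 4 calls of the mean sort difference, Cd96 in memory cells and Cd2 in the sort with LP-DC kept theirs in every setting tried. For the mean sort difference these settings could not leave out the single Sp-DC plus RA Foxp3- array, so its weight in those calls was not tested. With LP-DC, Cd200 lost its call without LP-DC Foxp3+ replicate 1 (adjusted p 0.0506) and Cd96 without replicate 1 of either sort (up to 0.245). Cd96 in the sort with Sp-DC, at 0.0413, lost its call with the mean of all probe sets and without any array of 6 (up to 0.322), and in Sp-DC plus RA over Sp-DC Foxp3+ cells without any of the 4 arrays compared (up to 0.125). Cd2 in memory cells lost its call without number 1 or 3 of either group (up to 0.2). Cd200 in LP-DC over Sp-DC Foxp3+ cells, at 0.0499, lost its call in 10 of 19 settings, median centring and no filter among them. The 3 calls of LP-DC Foxp3+ over Sp-DC plus RA Foxp3+ cells each lost theirs without any of 5 or 6 arrays (up to 0.382 for Btla, 0.459 for Cd2 and 0.124 for Cd200), and Cd2 with median centring. Of 82 receptor differences that passed in neither fit as designed, none passed in the unpaired fit's settings, and the sign turned in 104 of 1572. With the block, 9 such differences passed in 30 settings: in Memory plus RA over Memory Icos, Btla and Cd200 in 5 of 15 each (lowest adjusted p 0.00141, 0.0123 and 0.0185), in the sort with Sp-DC Cd2 in 5, Icos in 3 and Cd200 in 1 of 19, and Btla in 3 of 19 for LP-DC over Sp-DC Foxp3+ cells, 2 of 19 for LP-DC over Sp-DC Foxp3- cells and 1 of 18 for the mean sort difference (0.026, without Sp-DC Foxp3+ replicate 2).

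Groups held 1 to 3 arrays, and Pdcd1 and Havcr2 in the co-cultures and Havcr2 in the memory cultures were not tested because they lay below the array median.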
